A study of Mus musculus with 8 samples.

Results

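Among the 49315 genes counted in mouse kidney RNA, 10 encode the machinery of the adrenal gland, the small endocrine organ that lies on the kidney, and are described here library by library. Of these, 8 belong to the steroid-making cortex (Star, Cyp11a1, Hsd3b1, Cyp21a1, Cyp11b1, Cyp11b2, Mc2r and Nr5a1) and 2 to the catecholamine-making medulla (Th and Dbh). They were chosen by their measured CPM (counts scaled to a library of 1000000), which is high in 3 libraries, knockout replicates 1 and 4 and control replicate 4. Their levels by library are therefore a description, and no test is given for them.

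The libraries hold messenger RNA of frozen whole kidney tissue, captured with oligo-dT beads, from a control group of 4 and a group of 4 in which Kdm1a was conditionally knocked out. Kdm1a encodes LSD1, a histone demethylase. The extraction protocol calls the unmodified animals wild type, and the genotype label calls the group control. The Cre driver, the age and sex of the animals, and whether the counting used strand are not given in the sources used here. No label states that each library is a separate animal, so p-values measure the spread between these samples, which may be technical in part. Levels of Xist and Ddx3y, given below, split the libraries within both groups, so the libraries of a group do not all come from 1 animal. Depth ran from 19524945 to 28544511 counts per library, so that 1 count corresponds to 0.0346 to 0.0502 CPM. CPM here is scaled by edgeR's TMM factors, which adjust library sizes for composition.

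In the adrenal cortex, cells carry cholesterol into the mitochondrion and convert it by a chain of enzymes into glucocorticoids (corticosterone in the mouse) in the zona fasciculata and into aldosterone in the zona glomerulosa, the outermost zone. The pituitary hormone ACTH drives the fasciculata through the melanocortin receptor encoded by Mc2r, and the nuclear receptor SF-1, encoded by Nr5a1, acts on the promoters of many steroid-making genes. The medulla holds chromaffin cells of neural crest origin, which make noradrenaline and adrenaline from tyrosine. Sympathetic neurons make noradrenaline with the same enzymes, tyrosine hydroxylase (Th) and dopamine beta-hydroxylase (Dbh), but do not usually carry Pnmt, the enzyme that turns noradrenaline into adrenaline.

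Upstream sequence was read from RefSeq (GRCm38.p6) for the 4 members with an entry, Cyp11a1, Hsd3b1, Th and Dbh, as 5 windows of 250 bases before a start site. On both strands 3 short motifs were searched: TGACGTCA, the cAMP response element, AGGTCA, a core bound by nuclear receptors, and ATTA, the core read by homeodomain factors. The 3 stretches below show 1 match for a cortex gene and matches for both medulla genes, each read 5′ to 3′ on the gene's strand, with the named motif in capitals. The Th stretch lies at chr7:142900016-142900245 on the minus strand, 250 to 21 bases before the start, with the cAMP response element in capitals. The Dbh stretch lies at chr2:27165342-27165371 on the plus strand, with 2 ATTA cores in capitals, 157 and 147 bases before the start. The Cyp11a1 stretch lies at chr9:58014914-58014943 on the plus strand, 38 to 9 bases before the second of 2 RefSeq starts, with AGGTCA in capitals. That start, 58014952, lies inside the gene as the deposited tables place it (58006411 to 58027023), and the window of the first start, 57998024, held no AGGTCA. The Th start, 142899995, and the Dbh start, 27165507, also lie inside their deposited genes (142892752 to 142931128 and 27165233 to 27183200). All 3 stretches thus lie within the genes as counted.
Th: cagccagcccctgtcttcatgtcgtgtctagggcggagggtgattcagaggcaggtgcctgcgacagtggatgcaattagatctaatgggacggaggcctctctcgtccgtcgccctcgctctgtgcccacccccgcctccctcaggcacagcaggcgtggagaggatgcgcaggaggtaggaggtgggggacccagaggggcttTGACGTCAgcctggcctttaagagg
Dbh: catgtgtcATTAgtgccaATTAggggagat
Cyp11a1: ggaaggggggAGGTCAccgctccatcagct
Among 32851 RefSeq windows of the same length, TGACGTCA occurred in 1.55%, AGGTCA in 14.0% and ATTA in 54.9%. The Hsd3b1 window held neither TGACGTCA nor AGGTCA, and it held 2 ATTA cores. A match is a run of letters in a window and nothing more was measured there.

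The gene deleted by design was lower in every knockout library than in every control library. Kdm1a stood at 110, 112, 120 and 110 CPM in control replicates 1 to 4 and at 94.0, 95.3, 90.9 and 94.2 CPM in knockout replicates 1 to 4. Its fitted log2 difference was -0.27 (SE 0.05), with a Benjamini-Hochberg adjusted p of 0.0194 by edgeR's quasi-likelihood test over 18485 genes. In that fit 2751 genes (14.9%) were called at an adjusted p under 0.05, 1222 higher in knockout (6.61%) and 1529 lower (8.27%). The called set depends on single libraries: it held 536, 7084, 374 and 695 genes without control replicates 1 to 4 in turn, and 567, 596, 3192 and 153 genes without knockout replicates 1 to 4. The libraries also differed within the groups in Xist, the transcript of the inactive X chromosome, which stood at 965 CPM in control replicate 2, 1086 in knockout replicate 1 and 1047 in knockout replicate 4, against 2.25 to 6.14 CPM in the remaining 5. Ddx3y, a gene of the Y chromosome, split the same libraries the other way. It was at 0.380 to 1.08 CPM where Xist was high and at 75.5 to 112 CPM in the remaining 5. Knockout replicates 1 and 4, in which Th and Dbh were high, were the only knockouts with high Xist and low Ddx3y. Control replicate 2 thus had the knockout pair's level of Xist but low adrenal genes, and control replicate 4 had low Xist with raised levels of some cortex genes. The part of this split in the values below was not tested.

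The 10 adrenal genes were highest in knockout replicate 1, where they summed to 2682 CPM, or 0.280% of the library's counts. They summed to 333 CPM in knockout replicate 4 (0.0340%) and to 142 CPM in control replicate 4 (0.0134%). In control replicates 1, 2 and 3 the sums were 12.5, 17.6 and 13.7 CPM, and in knockout replicates 2 and 3 they were 14.6 and 16.6 CPM. Thus 2 knockout libraries and 1 control library stood apart from the remaining 5, and the 2 genotype groups overlapped. In none of the 10 genes were the groups apart, while over all tested genes the CPM of the groups did not overlap in 18.9%. The 10 genes were chosen for high levels in libraries of both groups, so their overlap follows from the choice and is not a result about genotype. In whole-tissue RNA a larger number of cells of one type and more RNA per cell cannot be told apart.

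**Figure D1:**
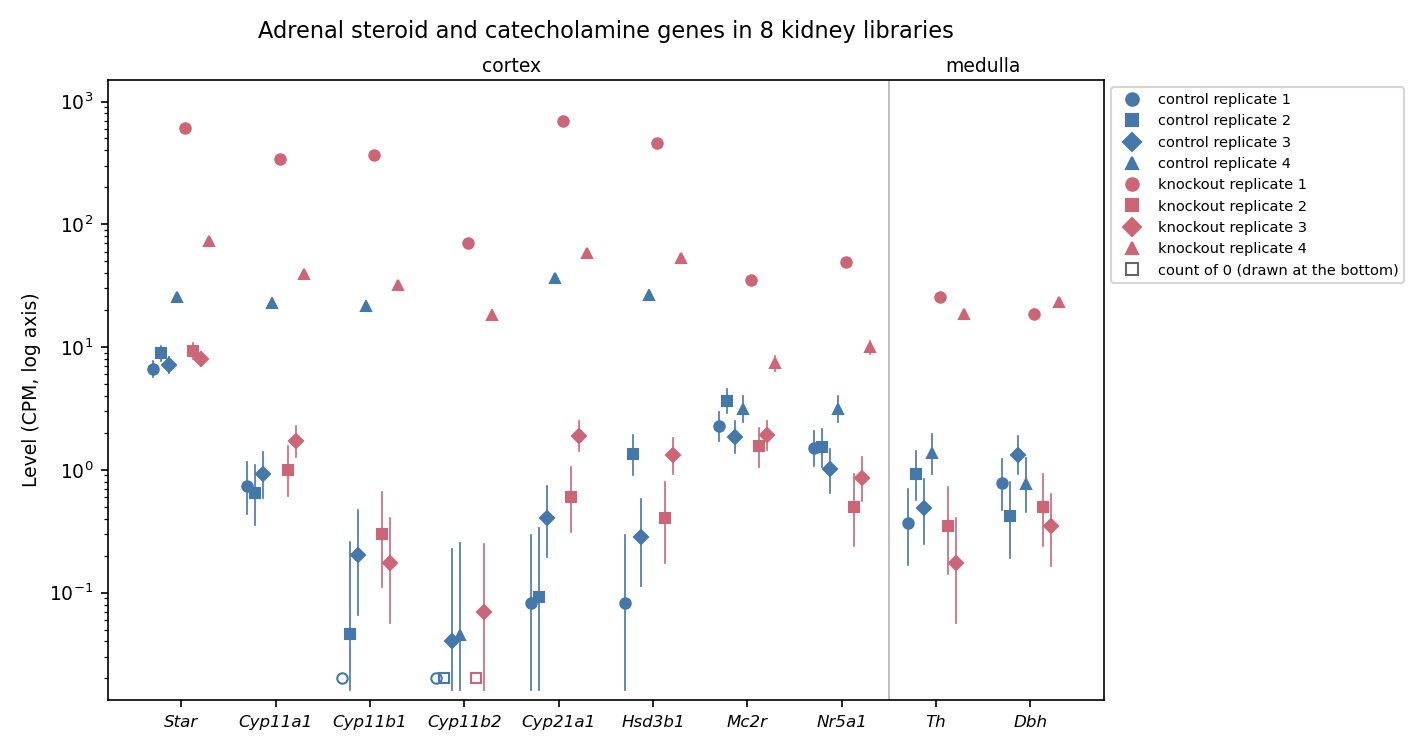
CPM (log axis) of each member gene in the 4 control (blue) and 4 knockout (red) libraries, with symbols for the replicate number and vertical lines for the 95% counting interval, drawn down to the bottom of the axis where it reaches lower; open symbols mark a count of 0. Knockout replicate 1 lies highest for every cortex gene (Star 613 CPM), with knockout replicate 4 second (Star 72.6 CPM), whereas for Th and Dbh the 2 libraries lie close together.

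The first step of steroid synthesis is carried by Star, which moves cholesterol to the inner mitochondrial membrane. Star (ENSMUSG00000031574, GRCm38 chr8:25806555-25815982, plus strand) stood at 6.64, 8.90, 7.14 and 25.5 CPM in control replicates 1 to 4 and at 613, 9.34, 8.06 and 72.6 CPM in knockout replicates 1 to 4. Knockout replicate 1 was 8.44 times knockout replicate 4 (95% counting interval 8.05 to 8.84), and that library was 2.84 times control replicate 4 (2.59 to 3.13). The 5 low libraries lay close together and well above 0. Star made up 50.2% to 68.1% of the counts of the 8 cortex genes in those 5 libraries. It made up 18.3% in control replicate 4, 23.2% in knockout replicate 1 and 25.0% in knockout replicate 4.

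Cyp11a1 encodes the side-chain cleavage enzyme that turns cholesterol into pregnenolone. Cyp11a1 (ENSMUSG00000032323, chr9:58006411-58027023, plus strand) was at 0.737, 0.649, 0.928 and 23.0 CPM in the controls and at 343, 1.0, 1.73 and 39.3 CPM in the knockouts. Again 3 libraries were high, and the remaining 5 held 14 to 50 counts each. The ratio of knockout replicate 1 to knockout replicate 4 was 8.73 (8.19 to 9.31), and that of knockout replicate 4 to control replicate 4 was 1.71 (1.54 to 1.90). A noncoding gene on the same strand, Gm17322, overlaps Cyp11a1 and shares 97 of its 4851 exact 50-base words, and it had 4 to 14 counts in the 8 libraries.

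Hsd3b1 encodes the 3 beta-hydroxysteroid dehydrogenase that converts pregnenolone to progesterone in adrenal and gonad. Hsd3b1 (ENSMUSG00000027871, chr3:98852194-98859794, minus strand) stood at 0.0819, 1.35, 0.283 and 26.8 CPM in the controls and at 462, 0.402, 1.32 and 53.0 CPM in the knockouts. Its low libraries were not all alike: control replicate 2 held 29 counts and knockout replicate 3 held 38, against 2, 7 and 8 in control replicates 1 and 3 and knockout replicate 2. The related gene Hsd3b6, another 3 beta-hydroxysteroid dehydrogenase, was arranged differently, at 4.92, 1.72, 7.22 and 12.8 CPM in control replicates 1 to 4 and at 0.507, 0.0502, 9.38 and 0.324 CPM in knockout replicates 1 to 4. Hsd3b6 thus had only 12 and 9 counts in the 2 knockout libraries where Hsd3b1 was highest. Hsd3b1 shares 4.86% of its 50-base words with other genes, of which 38 words are shared with Hsd3b6, and the part of shared reads in its lowest values was not tested.

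Cyp21a1 encodes steroid 21-hydroxylase, which both corticosterone and aldosterone synthesis need. Cyp21a1 (ENSMUSG00000024365, chr17:34801348-34804561, minus strand) was at 0.0819, 0.0927, 0.404 and 36.5 CPM in the controls and at 694, 0.602, 1.90 and 58.7 CPM in the knockouts. It reached the highest level of the 10 genes in knockout replicate 1 and rested on 2 counts in control replicates 1 and 2, with 95% counting intervals of 0.00992 to 0.296 and 0.0112 to 0.335 CPM. Its pseudogene Cyp21a2-ps, which shares 476 of the gene's 2231 words, followed the same libraries. In knockout replicates 1 and 4 it had 988 and 104 counts, in control replicate 4 it had 25, and elsewhere 0 to 2, and reads of the gene and its pseudogene may be split between them.

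The last steps separate the zones: Cyp11b1 encodes 11 beta-hydroxylase, which makes corticosterone in the fasciculata, and Cyp11b2 encodes aldosterone synthase of the glomerulosa. Cyp11b1 (ENSMUSG00000075604, chr15:74834125-74841643, minus strand) stood at 0, 0.0464, 0.202 and 21.6 CPM in the controls and at 370, 0.301, 0.173 and 31.8 CPM in the knockouts. Its 5 low libraries held 0 to 6 counts, and 0 counts in control replicate 1 allows up to 0.123 CPM. Cyp11b2 (ENSMUSG00000022589, chr15:74851010-74856318, minus strand) stood at 0, 0, 0.0404 and 0.0455 CPM in the controls and at 70.1, 0, 0.0692 and 18.3 CPM in the knockouts. Unlike the other enzymes of the cortex it was not raised in control replicate 4, where 1 count was found, against 476 counts of Cyp11b1.

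As a share of the summed counts of the pair, Cyp11b2 made up 15.9% in knockout replicate 1 (exact binomial 95% interval 15.2 to 16.6), 36.6% in knockout replicate 4 (34.1 to 39.2) and 0.210% in control replicate 4 (0.00531 to 1.16). These intervals cover counting error only, since reads copied by PCR are not independent molecules. The 3 libraries thus differed in the balance of glomerulosa and fasciculata enzyme by more than counting error, with 1 library for each value and no replicate. The 2 genes share 301 exact 50-base words, 19.1% of those of Cyp11b2. Both genes fell below the filter on low counts and have no fitted difference between genotypes.

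The receptor and the nuclear receptor act on the pathway rather than in it. Mc2r (ENSMUSG00000045569), the ACTH receptor, stood at 2.29, 3.66, 1.86 and 3.14 CPM in the controls and at 35.3, 1.56, 1.94 and 7.37 CPM in the knockouts. Control replicate 4 was not raised for this gene: control replicate 2 lay above it, with overlapping counting intervals (2.90 to 4.57 against 2.44 to 3.97 CPM). Nr5a1 (ENSMUSG00000026751, chr2:38692656-38714542, minus strand), the SF-1 gene, was at 1.52, 1.53, 1.01 and 3.14 CPM in the controls and at 49.7, 0.502, 0.865 and 9.93 CPM in the knockouts. For Nr5a1 the order knockout replicate 1, knockout replicate 4, control replicate 4 held with counting intervals that do not overlap. Both genes spanned less than the enzymes, 22.7-fold from the highest to the lowest library for Mc2r and 98.9-fold for Nr5a1, against 529-fold for Cyp11a1 and at least 3012-fold for Cyp11b1, where 0 counts were set to 3. Star, which carries cholesterol and is not an enzyme, spanned 92.3-fold, less than Nr5a1.

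Th and Dbh catalyse the first and the last step to noradrenaline. Th (ENSMUSG00000000214, chr7:142892752-142931128, minus strand) stood at 0.369, 0.927, 0.484 and 1.36 CPM in the controls and at 25.6, 0.351, 0.173 and 18.5 CPM in the knockouts. Dbh (ENSMUSG00000000889, chr2:27165233-27183200, plus strand) stood at 0.778, 0.417, 1.33 and 0.773 CPM in the controls and at 18.7, 0.502, 0.346 and 23.2 CPM in the knockouts. Both were high in 2 libraries, not 3. In control replicate 4, Th had 30 counts, with a counting interval that overlaps that of control replicate 2, and Dbh had 17, fewer than the 33 of control replicate 3. Dbh was the only member whose highest library was knockout replicate 4.

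The cortex and the medulla genes were therefore not in a fixed proportion. The 8 cortex genes summed to 140 CPM in control replicate 4, 291 in knockout replicate 4 and 2637 in knockout replicate 1, against 11.4 to 16.2 CPM elsewhere. Th and Dbh summed to 2.14, 41.7 and 44.3 CPM in the same 3 libraries, against 0.519 to 1.82 CPM elsewhere. Their share of all counts on the 10 genes was 1.51% in control replicate 4 (1.11 to 2.0), 12.5% in knockout replicate 4 (11.9 to 13.2) and 1.65% in knockout replicate 1 (1.55 to 1.75). Knockout replicate 1 and control replicate 4 had about the same share although their cortex sums differed 18.9-fold, and knockout replicate 4 had a share beyond both intervals. The share in control replicate 4 rests on 47 counts of Th and Dbh, close to the 28 to 45 of the other controls, against 1049 in knockout replicate 1.

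**Figure D2:**
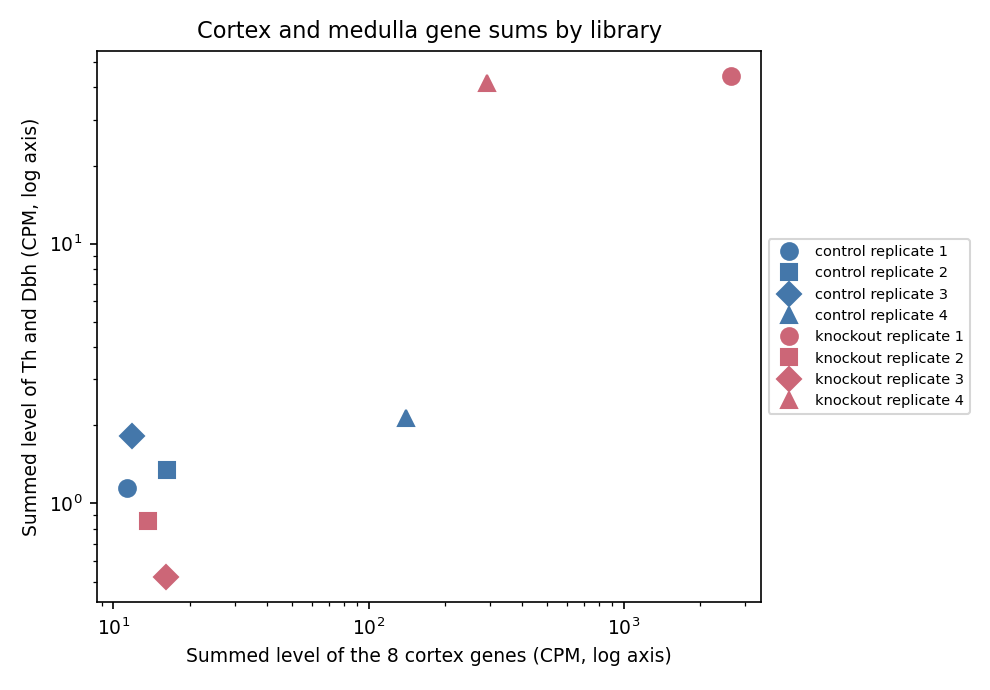
Summed CPM of the 8 cortex genes (horizontal, log axis) against summed CPM of Th and Dbh (vertical, log axis), 1 point per library, blue for control and red for knockout. Knockout replicates 1 and 4 sit at nearly one height (44.3 and 41.7 CPM) but far apart in the cortex sum (2637 and 291 CPM), and control replicate 4 (140 and 2.14 CPM) is raised on the horizontal axis alone.

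Set against each other, the 2 high knockout libraries differed much more in the 8 cortex members than in Th and Dbh. The ratio of knockout replicate 1 to knockout replicate 4 was 11.6 for Cyp11b1 (10.9 to 12.5) and 11.8 for Cyp21a1 (11.2 to 12.4), and 8.44 to 8.73 for Star, Cyp11a1 and Hsd3b1. It was lower for Cyp11b2, at 3.82 (3.46 to 4.23), for Mc2r, at 4.79 (4.10 to 5.61), and for Nr5a1, at 5.0 (4.38 to 5.72). Th had a ratio of 1.38 (1.23 to 1.56) and Dbh of 0.805 (0.711 to 0.909), so that these 2 genes lay on opposite sides of 1. Each ratio compares 2 libraries and not the genotypes, since both are knockouts.

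Genes outside the 10 had ratios over the same span, without a clean division by compartment. Akr1b7, an aldose reductase-like enzyme of the fasciculata, had a ratio of 10.03 (9.53 to 10.6) and Mrap, the accessory protein of the ACTH receptor, one of 9.81 (8.16 to 11.9). Kcnk3, a potassium channel of adrenal cortex cells, had a ratio of 4.22 (3.84 to 4.65), and Fdx1 and Scarb1, described further on, had ratios of 3.85 and 4.07. On the medulla side, Chga, the granule protein chromogranin A, had a ratio of 1.40 (1.30 to 1.5), and Slc6a2, the noradrenaline transporter, one of 0.944 (0.814 to 1.09). Pnmt stood out among the medulla genes with a ratio of 8.55 (6.65 to 11.1), which is the size seen for the cortex genes.

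**Figure D3:**
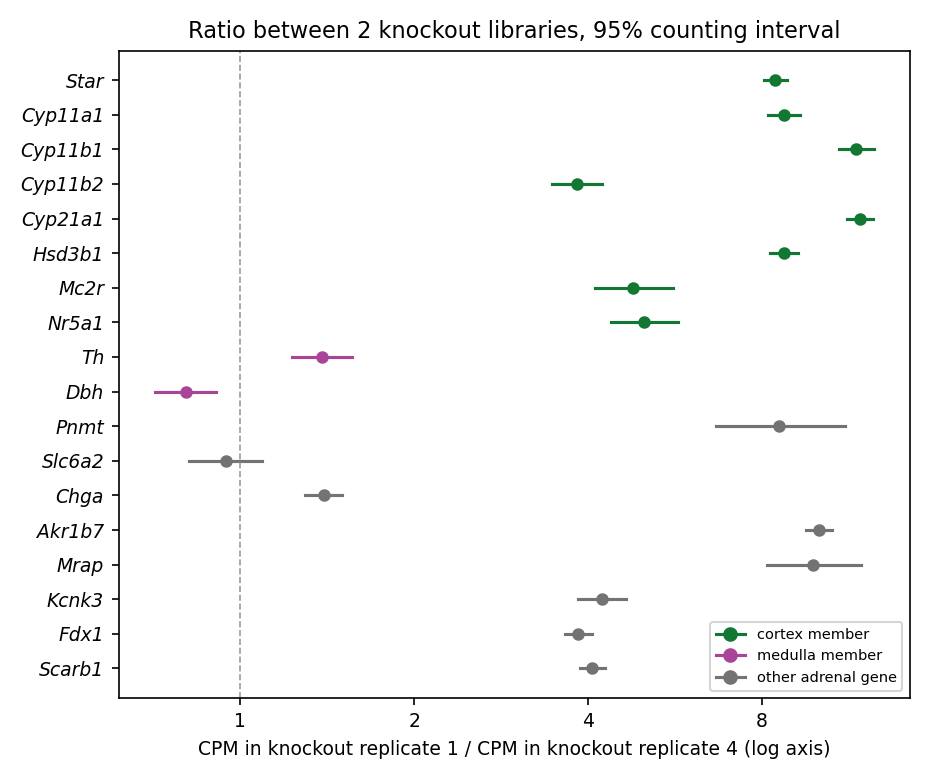
Ratio of CPM in knockout replicate 1 to CPM in knockout replicate 4 (log axis) for the members (cortex green, medulla purple) and other adrenal genes (grey), with 95% counting intervals; the dashed line marks a ratio of 1. The cortex members lie between 3.82 and 11.8, Th and Dbh near 1 (1.38 and 0.805), and Pnmt at 8.55, apart from Th and Dbh.

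Levels of different genes can be set side by side only per length, here as CPM divided by the exon length in kilobases (RPKM). In knockout replicate 1, Cyp21a1 led at 324 RPKM, followed by Hsd3b1 at 249, Star at 149, Cyp11b1 at 117, Cyp11a1 at 71.4 and Cyp11b2 at 43.1. Mc2r (22.6), Nr5a1 (11.7), Th (10.8) and Dbh (6.93) followed in RPKM, so the receptor and the nuclear receptor lay below every enzyme of the cortex. In knockout replicate 4 the order was Hsd3b1 (28.5), Cyp21a1 (27.4), Star (17.7) and Cyp11b2 (11.3) ahead of Cyp11b1 (10.05) in RPKM, with Dbh (8.62) and Th (7.84) either side of Cyp11a1 (8.18). Per length, aldosterone synthase was below 11 beta-hydroxylase in knockout replicate 1, while in knockout replicate 4 their counting intervals overlapped (10.3 to 12.3 against 9.40 to 10.7 RPKM). In control replicate 4, Cyp21a1 (17.1), Hsd3b1 (14.4), Cyp11b1 (6.84), Star (6.21) and Cyp11a1 (4.79) led in RPKM, and Cyp11b2 was at 0.0280. The intervals of Cyp11b1 and Star overlapped there (6.24 to 7.48 against 5.71 to 6.75 RPKM).

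Between the genotypes the 8 members that passed the filter on low counts had fitted log2 differences (knockout minus control) from 2.08 for Mc2r (SE 0.91) to 4.36 for Cyp21a1 (SE 2.15). The values are given without a test, since the genes were picked for the 3 libraries that set them. Mean Star was 12.1 ± 9.04 CPM over the controls and 176 ± 293 CPM over the knockouts (SD, n = 4), and the SD exceeded the mean in the knockout group for all 10 genes. Without knockout replicate 1 the differences ran from 0.41 for Mc2r to 3.27. Star went from 3.87 to 1.32, Cyp11a1 from 3.94 to 1.16 and Cyp21a1 from 4.36 to 1.15. Without control replicate 4, Cyp21a1 rose to 9.85.

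Genes whose pattern over the 8 libraries lay nearest to the members were ranked by the root mean square difference of centred log2 CPM, among 12672 candidates reaching 5 CPM in a library. The nearest to the mean profile of the 6 tested cortex members other than the 2 filtered enzymes was Mrap, at 0.42 log2 units. Kcnk3 (1.03), Akr1cl (1.03), Akr1b7 (1.09) and Chga (1.16) followed. The next places went to genes best known from liver: Fgg (1.23), a fibrinogen chain, Ahsg (1.29), fetuin-A, Alb (1.29), serum albumin, Serpina1e (1.40), a serine protease inhibitor, and Mat1a (1.43), which makes S-adenosylmethionine. The profile of Th and Dbh had Alb nearest (0.42), then Ahsg (0.49), Chga (0.50), Serpina1e (0.51) and Fgg (0.63). Ranking by Pearson correlation over the 8 libraries kept 2 of the 10 cortex genes, Mrap and Kcnk3, and 4 of the 5 medulla genes.

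The members differed among themselves on this measure. Cyp11a1 lay 0.65 log2 units from the cortex profile and 1.60 from the medulla profile. Nr5a1 lay 1.21 from the cortex profile and 0.84 from that of Th and Dbh, and Mc2r 1.83 and 1.21, so both were nearer the medulla pair by this distance. Th itself lay 1.08 from the cortex profile, nearer to it than Nr5a1, Mc2r, Hsd3b1 (1.51) or Cyp21a1 (1.99). The distance counts the size of a gene's span as well as its order over the libraries. In the ratio of knockout replicate 1 to knockout replicate 4, Nr5a1 (5.0) and Mc2r (4.79) were unlike Th (1.38) and Dbh (0.805). Star was nearly midway, at 0.88 and 0.94. These distances contain the members' own values in the profiles and are descriptive.

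Other cortex genes were looked at through 4 lists: further steroid synthesis enzymes, regulators, genes of cholesterol uptake and storage, and zone markers. Of 56 tested genes outside the members, 4 were higher in knockout and 6 lower, 17.9% against 14.9% of all tested genes, and the median log2 difference was 0.03 against 0.00. Knockout replicates 1 and 4 were the top 2 libraries for 14 of the 56 (25.0%), against 7.70% of all tested genes. The members' libraries were thus the highest ones for a minority of the cortex lists, while the genotype calls went in both directions. Without control replicates 1 to 4 in turn the calls numbered 2, 22, 3 and 4, and without knockout replicates 1 to 4 they numbered 3, 3, 15 and 1.

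Among the genes of cholesterol supply, 1 gene was called higher in knockout and 4 lower, of 15 tested. Hmgcs1, an enzyme of early cholesterol synthesis, was at 214, 177, 278 and 285 CPM in the controls and at 104, 84.3, 117 and 94.7 CPM in the knockouts. Its log2 difference was -1.25 (SE 0.16, edgeR adjusted p = 0.00815), it was lower in 4 of 4 knockouts than in every control, and the call was kept without each single library in turn. Soat1, which stores cholesterol as esters and is a gene of adrenal steroid cells, rose by 0.58 (edgeR adjusted p = 0.0225). With 1 library left out, Soat1 kept its call only without control replicate 2, knockout replicate 2 or knockout replicate 3 (highest adjusted p = 0.0689). The knockouts had similar levels whether or not their adrenal genes were high: Soat1 was at 129, 98.7, 123 and 105 CPM.

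Among steroid genes outside the members, Cyb5a, an electron donor to steroid enzymes, fell by 0.63 (edgeR adjusted p = 0.0205). Hsd11b1, which regenerates active glucocorticoid, fell by 1.56 (edgeR adjusted p = 0.0264), and Hsd11b2, the kidney enzyme that inactivates it, rose by 0.59 (edgeR adjusted p = 0.0459), although control replicate 4 (42.4 CPM) lay within the knockout range for Hsd11b2. Mrap2, a relative of Mrap, rose by 1.63 (edgeR adjusted p = 0.0336) and Agtr1b, an angiotensin II receptor gene, by 1.22 (0.0239). Leaving out 1 library, Cyb5a, Hsd11b1 and Agtr1b kept their call only without control replicate 2 or knockout replicate 3 (highest adjusted p 0.0698, 0.0857 and 0.0764). Hsd11b2 kept it without control replicate 2 or 4 (highest 0.128), and Mrap2 without control replicates 2 or 3 or knockout replicate 3 (highest 0.0919). No call among the cortex genes was left in edgeR's fit without control replicate 4 and knockout replicates 1 and 4 together (0 at an adjusted p under 0.05, 12 at an unadjusted p under 0.05), a fit with 5 libraries.

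Cofactors and further cortex markers split between those that moved with the members and those that did not. Akr1b7 was at 9.18, 10.02, 12.1 and 32.0 CPM in the controls and at 599, 1.56, 16.3 and 59.7 CPM in the knockouts, and Mrap at 0.205 to 1.82 CPM in the controls and at 45.1, 0.201, 0.415 and 4.6 CPM in the knockouts. Both followed the order of the cortex members. Fdx1, the ferredoxin that supplies electrons to mitochondrial steroid enzymes, and Scarb1, the receptor for high-density lipoprotein, had high levels in every library. Fdx1 stood at 230 CPM in knockout replicate 1 and at 25.5 to 59.9 CPM in the rest, and Scarb1 at 288 and at 42.4 to 70.8 CPM. Nr0b1, which encodes the SF-1 partner DAX-1, reached 5.96 CPM in knockout replicate 1 and 3.02 in knockout replicate 4, against 0.773 to 1.48 CPM elsewhere. Akr1c18, which breaks down progesterone, ranged from 0.848 to 2.13 CPM with no such order.

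Steroid-making cells of the gonads also express several of the members, and 10 of their markers were measured. Summed over the list they lay at 4.92 to 7.79 CPM in the controls and at 5.19 to 6.97 CPM in the knockouts, with knockout replicate 1 at 6.97. Insl3, a hormone of Leydig and theca cells, was at 0.182 to 0.974 CPM, and Hsd17b3, the testosterone-forming enzyme of the testis, was at 0.232 CPM or below in all 8 libraries. Lhcgr, the receptor for luteinizing hormone, was at 0.325 CPM or below. Cyp17a1, which opens the path to androgens in gonads, was at 1.86 CPM in knockout replicate 1, where Cyp11a1 reached 343 CPM, and at 0.468 CPM or below elsewhere. Inhbb, a subunit of inhibin and activin, was highest in knockout replicates 4 and 1, at 4.21 and 4.18 CPM, against 1.35 to 3.82 CPM elsewhere. The oocyte list summed highest in control replicate 2, at 20.7 CPM against 3.23 to 9.33 CPM in the other 7 libraries, but its genes did not move as one. The oocyte factors Sohlh1, Nobox and Figla and the egg protein gene Nlrp5 had 102, 81, 57 and 55 counts there and at most 5, 3, 2 and 1 in any other library. Zp3, an egg coat protein, had 13 counts in that library and 0 to 6 elsewhere, and Gdf9, an oocyte growth factor, was at 0.311 to 1.01 CPM with its highest level in knockout replicate 1. Ooep, the 1 gene called of 3 tested on the oocyte list, was at 6.72, 4.42, 6.33 and 7.09 CPM in knockout replicates 1 to 4. In the controls it was at 1.82 to 3.15 CPM (log2 difference 1.27, edgeR adjusted p = 0.0168). Its call was lost without control replicates 1 or 3 or knockout replicate 4 (highest adjusted p 0.0610). The part of RNA from gonads in the members' levels was not tested.

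Medulla genes were examined through a list of the catecholamine pathway and a list of chromaffin granule and identity genes. Of 33 tested genes outside the members, 4 were higher in knockout and 4 lower, 24.2% against 14.9% of all tested genes, with a median log2 difference of 0.56 against 0.00. Knockout replicates 1 and 4 were the top 2 libraries for 16 of the 33 (48.5%), against 7.70% of all tested genes. Without control replicates 1 to 4 in turn the calls numbered 1, 11, 1 and 1, and without knockout replicates 1 to 4 they numbered 1, 2, 18 and 1. Without control replicate 4 and knockout replicates 1 and 4 together, edgeR left 0 (9 at an unadjusted p under 0.05).

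The genes called in these lists were mostly not the ones that moved with Th and Dbh. Penk, the enkephalin precursor, was at 253, 257, 323 and 311 CPM in the controls and at 419, 459, 541 and 504 CPM in the knockouts. It rose by 0.75 on the log2 scale (SE 0.11, edgeR adjusted p = 0.0109), in 4 of 4 knockouts above every control, and the call was kept without each single library. Npy, neuropeptide Y, rose by 2.45 (edgeR adjusted p = 0.0230) and was highest in knockout replicates 1 (34.5 CPM) and 4 (27.9 CPM), with knockout replicates 2 and 3 at 6.22 and 8.62 CPM and the controls at 3.0 to 4.34 CPM. Gata3, a factor of sympathoadrenal cells that kidney ducts also express, rose by 0.56 (edgeR adjusted p = 0.0364). Qdpr and Spr, which maintain the cofactor of tyrosine hydroxylase, fell by 0.59 and 0.45 (edgeR adjusted p = 0.0319 and 0.0390). With 1 library left out, Npy was called without control replicate 2, knockout replicate 2 or knockout replicate 3 (highest adjusted p 0.0733), Gata3 without control replicate 2 (highest 0.107), and Qdpr and Spr without control replicate 2 or knockout replicate 3 (highest 0.0903 and 0.116).

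Pnmt and Slc18a1 were arranged differently from Th. Pnmt was at 9.09, 1.07, 6.70 and 5.36 CPM in the controls and at 21.5, 0.402, 0.588 and 2.52 CPM in the knockouts. Thus 3 controls had more Pnmt than knockout replicate 4, in which Th was 13.6 times that of control replicate 4 (9.40 to 20.3). As a share of the summed counts of Pnmt and Th, Pnmt made up 12.0% in knockout replicate 4 (9.45 to 14.9), 45.7% in knockout replicate 1 (42.7 to 48.6) and 79.7% in control replicate 4 (72.3 to 85.9). Slc18a1, the vesicular monoamine transporter of chromaffin cells, was lower in every knockout (3.42, 0.703, 1.66 and 4.06 CPM) than in every control (23.4, 5.43, 14.1 and 27.2 CPM), with a log2 difference of -2.82 (SE 0.60, edgeR adjusted p = 0.0222). That call was kept without control replicate 2 or knockout replicate 3 and lost without each of the other 6 (highest adjusted p 0.0630). The span of Slc18a1 from start to end overlaps that of the abundant gene Atp6v1b2 on the opposite strand (1773 to 3674 counts). Whether their exons overlap was not examined, the strand setting is not known, and the part of Atp6v1b2 reads in the Slc18a1 counts was not tested. Slc18a2, the other vesicular monoamine transporter, did follow Th: it was at 3.73, 6.63, 4.48 and 3.73 CPM in control replicates 1 to 4 and at 12.3, 5.37, 3.77 and 16.4 CPM in knockout replicates 1 to 4, and it was not called (edgeR adjusted p = 0.134). Ddc, the second enzyme of the pathway, which kidney tubules also express, ranged from 3.67 to 16.6 CPM without the jump seen for Th.

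**Figure D4:**
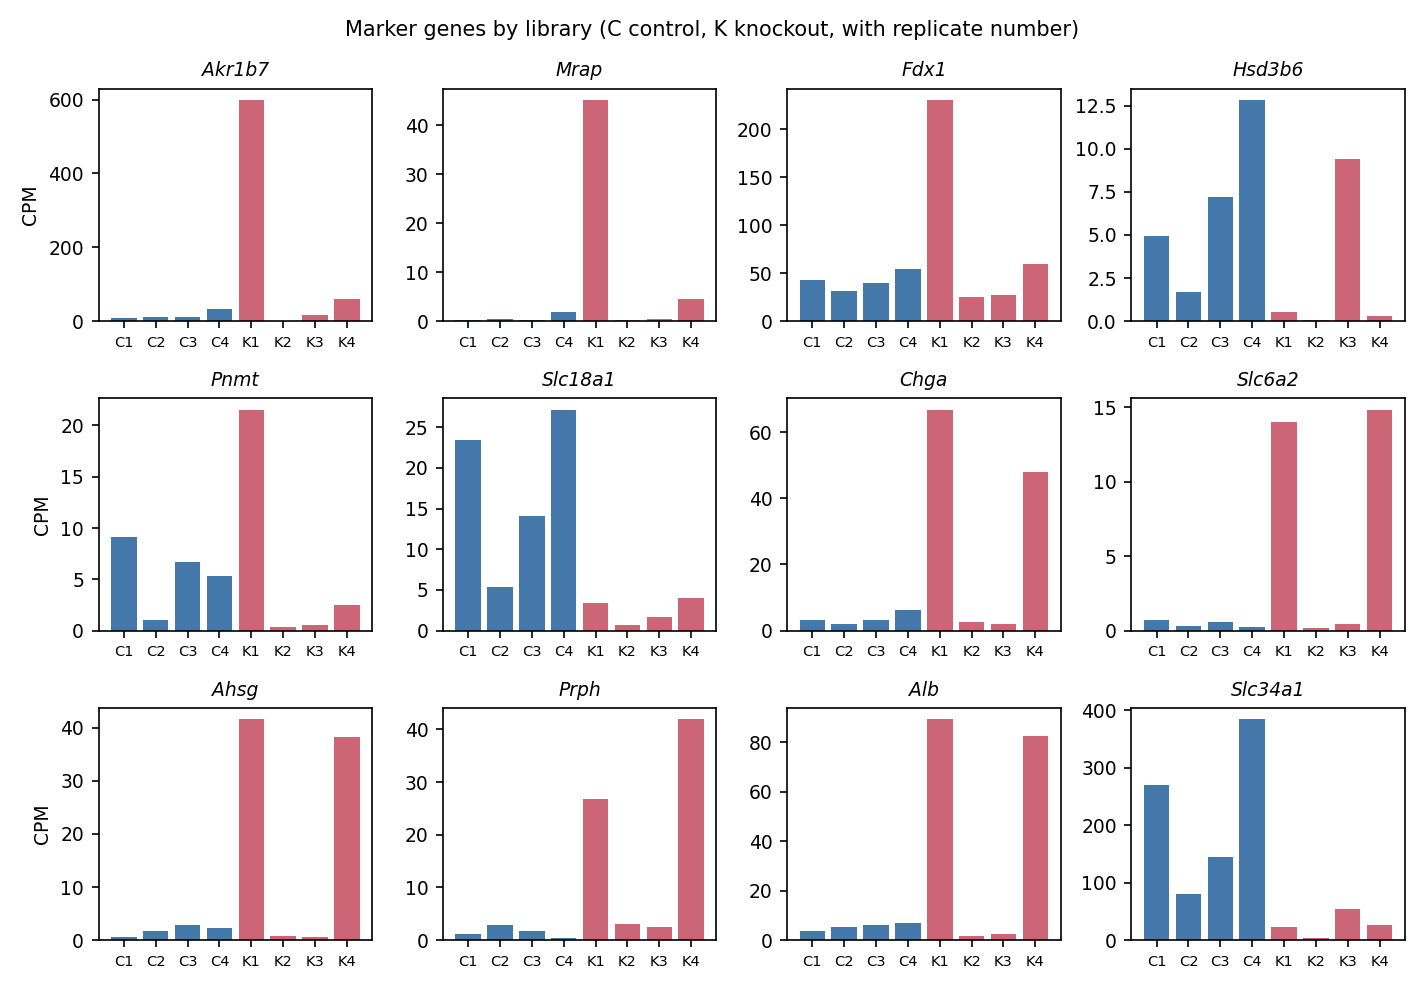
CPM (bars from 0, a separate linear axis for each gene) of 12 genes outside the members in control (blue) and knockout (red) libraries. Akr1b7, Mrap, Fdx1 and Pnmt peak in knockout replicate 1, Pnmt with control replicate 1 next. Chga, Slc6a2, Ahsg, Prph and Alb are high in knockout replicates 1 and 4 alone, and Slc18a1, Hsd3b6 and Slc34a1 are highest in control replicate 4.

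Markers of neurons and liver were high in the same 2 knockout libraries as Th and Dbh. In the list of sympathetic and sensory neuron and glia genes, 8 of 14 tested genes had knockout replicates 1 and 4 as their top 2 libraries, against 7.70% of all tested genes, and the list summed to 78.2 to 168 CPM in the controls and to 140 to 353 CPM in the knockouts. Prph, the intermediate filament peripherin, was at 26.8 and 42.0 CPM in knockout replicates 1 and 4 and at 0.50 to 3.16 CPM elsewhere. Slc6a2 was at 14.0 and 14.9 CPM in the 2 libraries and at 0.737 CPM or below elsewhere. In the list 4 of the 14 genes were called higher in knockout and none lower, against 6.61% and 8.27% of all tested genes, among them Uchl1 (log2 difference 0.69, edgeR adjusted p = 0.0218), Isl1 (2.55, 0.0285) and Prph (3.55, 0.0400). Isl1 and Prph kept their call only without control replicate 2 or knockout replicate 3 (highest adjusted p 0.0872 and 0.110), and Uchl1 also without knockout replicate 2 (highest 0.0699). Without control replicate 4 and the 2 knockout libraries together Prph was at 0.53 and its call was lost.

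Of the 7 liver genes measured, 5 had knockout replicates 1 and 4 as their top 2 libraries, against 7.70% of all tested genes, and the list summed to 26.6 to 106 CPM over the controls and to 13.7 to 200 CPM in the knockouts. Alb was at 3.52, 5.47, 6.01 and 7.09 CPM in the controls and at 89.3, 1.71, 2.35 and 82.4 CPM in the knockouts, and Ahsg at 41.6 and 38.2 CPM in knockout replicates 1 and 4 against 0.533 to 2.95 CPM elsewhere. Control replicate 4, which was high for the cortex enzymes, was not apart for either. Apoa1, the main protein of high-density lipoprotein, rose by 2.25 (edgeR adjusted p = 0.0277) and Ttr, transthyretin, fell by 3.76 (edgeR adjusted p = 0.0168), so the list did not move as one. The call of Apoa1 was kept without control replicate 2 or knockout replicate 3 (highest adjusted p 0.0860), and that of Ttr was lost without knockout replicates 1 or 4 (highest 0.0609). Pancreas genes gave no such order, with sums of 6.21 to 18.1 CPM over the controls and of 3.36 to 15.5 CPM over the knockouts, and Amy2a5 and Prss2 had 0 counts in all 8 libraries. The part of RNA from these sources in the levels of Th and Dbh was not tested.

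Proximal tubule genes, the bulk of normal kidney cortex, summed lower in every knockout than in every control and did not share the order of the adrenal genes. Their sum was highest in control replicate 4, 1 of the 3 adrenal libraries. Knockout replicates 1 and 4 (141 and 167 CPM) lay between the other knockouts. Aqp1, a water channel, overlapped between the groups, at 89.4 CPM in control replicate 2 and 125 CPM in knockout replicate 3. All 10 listed genes were lower in knockout by edgeR's test, against 8.27% of all tested genes, with sums of 452 to 1818 CPM over the controls and of 79.7 to 333 CPM over the knockouts. Slc34a1, the phosphate transporter, fell by 3.04 (edgeR adjusted p = 0.0267) and stood at 22.5 and 26.2 CPM in knockout replicates 1 and 4, between knockout replicate 2 (4.42 CPM) and knockout replicate 3 (53.7 CPM). Control replicate 4 had the highest level, at 385 CPM. Without control replicates 1 to 4 in turn 4, 10, 4 and 5 of the 10 were called by edgeR. Without knockout replicates 1 to 4 there were 3, 7, 10 and 1, the last being Pck1, a gluconeogenesis enzyme (edgeR adjusted p = 0.0333). In edgeR's fit without control replicate 4 and knockout replicates 1 and 4 together 0 were called (9 at an unadjusted p under 0.05). The call for Slc34a1 was kept without control replicate 2, knockout replicate 2 or knockout replicate 3, and lost without each of the other 5 (highest adjusted p 0.0857). High adrenal gene levels were therefore found both in the control library with most Slc34a1 and in 2 knockout libraries with little.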

How the data were processed

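Per the file headers, the values the authors deposited are raw read counts for each gene, in 1 table for the series and 1 per library with exon coordinates, strand and length. The tables held the same values in all 49315 genes (0 cells differed). The submitters' processing notes name Trimmomatic 0.36, STAR 2.5.2b, featureCounts of Subread 1.5.2, DESeq2 and the build GRCm38, with no settings, and how reads matching several genes were counted is not given in the sources used here. All 10 symbols were matched by Ensembl ID through GENCODE M21, where the coordinates of 9 equal the deposited ones; those of Mc2r differ, and none are printed for it.

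Counts were fitted with edgeR 4.0.16 (R 4.3.3): TMM scaling, filterByExpr, quasi-likelihood test of genotype with no block over all 8 libraries, and Benjamini-Hochberg adjustment over 18485 genes. The script was tested on simulated data. DESeq2 1.42.0, other filters, the replicate number as a block, and fits without libraries served as alternatives. Counting intervals are exact at 95%, and a count of 0 allows 3 counts. Distances used log2 CPM with a prior count of 2. Python 3.11.15 with scipy 1.17.1 did the rest.

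Named genes are the 10 members, the genes most like them (10 for cortex, 5 for medulla; pseudogenes and numbered genes passed over), up to 3 called genes with the smallest adjusted p of each list, and defining markers of each list. Slc6a2, Slc18a2, Inhbb, 4 oocyte genes, the copies of members, Xist and Ddx3y were named after their values were seen. The members and lists were chosen with earlier results of these data known. Tf, on the liver list, was not matched. Some genes of the lists are counted but not reported here by name.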

Additional observations from a re-analysis of the deposited data

Results flagged for a closer look

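Of 24 groups of 4 libraries examined (the 10 members, and the summed cortex and summed medulla genes, in each genotype), 12 had 1 library whose gap to its nearest neighbour was, as a share of the group's range, above Dixon's 95% critical value. Chance marks about 1 in 20 groups of unselected values, but these genes were picked for being high in those libraries, so the marks follow from the choice and are a description of the sizes, not a test. Among the controls, all 6 marks fell on control replicate 4: Star at 25.5 CPM (next 8.90), Cyp11a1 at 23.0 (next 0.928), Cyp11b1 at 21.6 (next 0.202), Cyp21a1 at 36.5 (next 0.404), Hsd3b1 at 26.8 (next 1.35) and the cortex sum at 140 (next 16.2). Among the knockouts, all 6 fell on knockout replicate 1: Star at 613 CPM (next 72.6), Cyp11a1 at 343 (next 39.3), Cyp11b1 at 370 (next 31.8), Cyp21a1 at 694 (next 58.7), Hsd3b1 at 462 (next 53.0) and the cortex sum at 2637 (next 291). Mc2r, Nr5a1, Cyp11b2, Th, Dbh and the medulla sum had no such library in either group.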

How the results depend on the processing

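The count of called genes (2751) became 4506 with DESeq2, 153 to 7084 without 1 library, and 1 without control replicate 4 and knockout replicates 1 and 4 together (2378 at an unadjusted p under 0.05). Called cortex genes outside the members (10) became 17 with DESeq2, 1 to 22 without 1 library and 0 by edgeR without those 3 (12 at an unadjusted p under 0.05). Called medulla genes (8) became 15, 1 to 18 and 0 (9 at an unadjusted p under 0.05). The cause was not tested, and these fits have fewer samples. Of 88 alternative log2 differences of members, 85 moved by less than the spread between replicates and none was negative. That spread is wide, and with the replicate block Star went from 3.87 to 1.76 and the median of the 8 from 3.85 to 2.54. The 88 do not cover DESeq2, the filter at a mean of 1 CPM or the fit without those 3 libraries together. In the libraries left in that last fit, Nr5a1 was lower in the knockouts (0.502 and 0.865 CPM) than in the controls (1.01 to 1.53 CPM). Cyp11a1 was higher there (1.0 and 1.73 against 0.649 to 0.928 CPM), so a stable sign was not shown. On raw library totals, the members summed to 134 CPM in control replicate 4, 2797 in knockout replicate 1 and 340 in knockout replicate 4. By Pearson correlation, 2 of the 10 genes most like the cortex profile were shared. With the replicate block, 3229 genes, 12 cortex genes and 8 medulla genes were called. Same-numbered libraries had deviations correlated at -0.11, 0.33, 0.23 and -0.06. Libraries with unlike numbers were not compared, so these values cannot decide whether the numbers pair the samples, and no label says so. Differences resting on 0 to 3 counts were not detectable at this depth.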
